A study of Mus musculus domesticus with 12 samples.

Results

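The RNAs described here are the expressed small nuclear and nucleolar RNAs of mouse erythroid precursors, taken as all genes annotated as snoRNA, scaRNA or snRNA in GENCODE mouse release 21 with an expected count of at least 10 in 4 or more of 12 libraries. The members were thus chosen by their measured expected counts, and the counts that chose them are given as a description. The rule kept 38 of 2941 annotated genes (21 annotated as snoRNA, 6 as scaRNA and 11 as snRNA), out of 55385 genes in the files. Livers of C57BL/6J fetuses (age E14.5) were dissociated, depleted of lineage-positive cells and infected with retroviral vectors carrying an shRNA, so that Dis3 and Exosc10 were knocked down and not deleted. The 3 groups of 4 libraries each carried shDis3, shExosc10 or shLuc, directed at firefly luciferase as the control. After 2 days in erythroid expansion medium, GFP-positive precursors with intermediate CD71 and proerythroblasts with intermediate or positive CD71, all without Ter119, were sorted for total RNA sequencing. Dis3 and Exosc10 are the catalytic subunits of the RNA exosome, and the series asked what each does for the transcriptome of these cells. Nothing in the labels says whether replicates were separate litters or cultures, so p-values measure the spread between these libraries, which may be technical.

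Small nucleolar RNAs guide chemical modification of ribosomal RNA. Box C/D snoRNAs guide ribose methylation, and box H/ACA snoRNAs guide pseudouridylation. Some, such as U3 and the U17 family to which Snora73 belongs, act instead in the cleavage of the ribosomal RNA precursor. The scaRNAs carry the same boxes and guide modification of spliceosomal snRNAs in Cajal bodies, and U2 snRNA is the spliceosomal RNA that pairs with the intron branch site. The nuclear exosome trims the 3′ ends of many of these RNAs, and in yeast the loss of the Exosc10 counterpart leaves snoRNAs with extended 3′ ends. Most vertebrate snoRNAs lie in introns of host genes and are released when the host intron is processed.

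The sequences of some members of each class, with related copies, are shown because they show the boxes and let the copies be compared; all are from the GENCODE 21 transcripts on GRCm38, 5′ to 3′. Snord17 (chr2:144265979-144266216, minus strand) is a box C/D RNA, Scarna6 (chr1:87784556-87784820) and Gm25395 (chr1:87776938-87777209) are scaRNAs, and Gm23547 (chr6:124715232-124715502) is unclassified. Only the ends of these RNAs were searched, so other boxes inside them were not looked for. In them the capitals mark TGATGA in the first 15 bases and CTGA in the last 15. In Rnu3b1 (chr11:87443237-87443451), a U3 gene, they mark an internal TGATGA and the CTGA near the 3′ end.
Snord17: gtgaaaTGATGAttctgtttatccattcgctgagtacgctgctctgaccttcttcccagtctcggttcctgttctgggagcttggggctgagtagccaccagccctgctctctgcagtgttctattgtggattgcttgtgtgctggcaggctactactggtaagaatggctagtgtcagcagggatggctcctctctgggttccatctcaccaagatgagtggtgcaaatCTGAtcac
Rnu3b1: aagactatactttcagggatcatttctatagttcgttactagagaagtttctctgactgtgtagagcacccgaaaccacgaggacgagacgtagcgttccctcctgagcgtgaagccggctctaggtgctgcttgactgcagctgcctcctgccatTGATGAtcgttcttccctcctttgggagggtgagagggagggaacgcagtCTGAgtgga
Scarna6: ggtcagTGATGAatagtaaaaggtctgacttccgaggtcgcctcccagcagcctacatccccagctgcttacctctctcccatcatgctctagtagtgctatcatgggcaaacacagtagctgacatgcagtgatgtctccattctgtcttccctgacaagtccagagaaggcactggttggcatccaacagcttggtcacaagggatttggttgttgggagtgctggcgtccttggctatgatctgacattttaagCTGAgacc
Gm25395: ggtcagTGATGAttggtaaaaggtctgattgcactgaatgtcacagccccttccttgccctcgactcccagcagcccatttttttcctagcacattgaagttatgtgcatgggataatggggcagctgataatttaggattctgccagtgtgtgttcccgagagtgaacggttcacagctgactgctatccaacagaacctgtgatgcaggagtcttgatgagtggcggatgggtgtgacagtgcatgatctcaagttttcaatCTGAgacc
Gm23547: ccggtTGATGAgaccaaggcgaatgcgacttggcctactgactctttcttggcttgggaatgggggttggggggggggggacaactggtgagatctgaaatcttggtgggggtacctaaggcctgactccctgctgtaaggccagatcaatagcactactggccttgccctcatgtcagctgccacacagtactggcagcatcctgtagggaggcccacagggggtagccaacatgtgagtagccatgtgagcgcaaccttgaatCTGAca
In the H/ACA type members Gm26448 (chr9:120129351-120129553), Snora73b (chr4:132352322-132352526, minus strand) and Scarna13 (chr12:105031075-105031349, minus strand), the capitals mark ACA followed by 3 bases at the 3′ end.
Gm26448: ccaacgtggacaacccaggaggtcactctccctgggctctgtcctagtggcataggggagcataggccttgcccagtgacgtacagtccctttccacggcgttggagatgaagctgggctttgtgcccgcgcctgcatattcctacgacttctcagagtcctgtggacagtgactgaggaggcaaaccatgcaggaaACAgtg
Snora73b: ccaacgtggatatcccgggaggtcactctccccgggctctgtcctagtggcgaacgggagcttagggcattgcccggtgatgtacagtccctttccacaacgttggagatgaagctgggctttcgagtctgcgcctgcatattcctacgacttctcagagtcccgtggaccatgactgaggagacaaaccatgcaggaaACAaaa
Scarna13: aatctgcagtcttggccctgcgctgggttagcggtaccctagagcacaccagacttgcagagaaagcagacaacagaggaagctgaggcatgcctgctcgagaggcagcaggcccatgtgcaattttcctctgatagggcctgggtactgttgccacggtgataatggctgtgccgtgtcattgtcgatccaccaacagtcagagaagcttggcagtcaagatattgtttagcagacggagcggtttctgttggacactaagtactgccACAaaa
In Rnu2-10 (chr11:101658238-101658428), a U2 gene, the capitals mark GTAGTA, which pairs with the branch site of introns. In the U2 copies Gm25360 (chr1:72226240-72226430) and Gm22973 (chr12:59040335-59040525) they mark the 4 and 9 bases that differ from Rnu2-10.
Rnu2-10: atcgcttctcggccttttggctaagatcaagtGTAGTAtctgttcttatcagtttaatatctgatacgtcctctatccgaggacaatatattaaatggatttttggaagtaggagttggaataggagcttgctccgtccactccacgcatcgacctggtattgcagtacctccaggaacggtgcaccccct
Gm25360: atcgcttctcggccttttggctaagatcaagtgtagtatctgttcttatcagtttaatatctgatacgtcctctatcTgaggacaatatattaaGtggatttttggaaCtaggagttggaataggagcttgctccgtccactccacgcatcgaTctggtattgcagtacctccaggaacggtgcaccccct
Gm22973: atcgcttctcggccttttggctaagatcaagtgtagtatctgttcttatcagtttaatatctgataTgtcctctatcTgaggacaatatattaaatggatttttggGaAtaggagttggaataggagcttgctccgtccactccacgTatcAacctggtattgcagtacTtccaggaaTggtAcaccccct

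The 38 genes fell into 11 box C/D genes, 5 box H/ACA genes, 7 scaRNA genes, 11 spliceosomal snRNA genes and 4 unclassified genes. Symbols gave the class where they could. Gm26448 was placed with the H/ACA RNAs for an identity of 88.3% to Snora73a, and Gm22009, Gm25395 and Gm26083 by their annotated type. On the transcript strand, with both boxes in their windows, TGATGA and CTGA were found together in 299 of 1558 annotated snoRNA and scaRNA genes (19.2%), and ACA 3 bases before the end in 301 (19.3%). Among members, the first pair was found in 1 of 3 distinct box C/D RNAs, in 4 of 7 scaRNAs (Scarna6, Scarna10, Gm22009 and Gm25395) and in 1 of 4 unclassified RNAs (Gm23547). The ACA was found in 4 of 5 H/ACA RNAs (all but Snora81) and in 2 scaRNAs (Scarna13 and Gm26083). The other unclassified RNAs, Gm23262, Gm23946 and Gm24119, held neither.

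Many of the 38 genes are copies of one another. They lie at 33 loci and hold 28 distinct sequences. All 11 spliceosomal members are U2 genes, with 95.3% to 100% identity to Rnu2-10. The box C/D class has 2 gene entries for Rnu3a at the same start and 8 entries for Rnu3b1 to Rnu3b4, which lie in an intron of Tex14, with 215 and 216 bases at each of 4 loci. Reads that fit several copies are divided by the estimation, so the copies were summed into 20 RNAs for most of what follows: U2 snRNA, Rnu3a, Rnu3b and 17 others. No other spliceosomal snRNA entered. Rnu1a1 summed to 32.3 expected counts over all libraries, and Rnu5g, Rnu6, Rnu11 and Rnu12 were listed at 0. Rnu7, an snRNA that is not spliceosomal, was also listed at 0.

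The RNAs with counts were long. The shortest member, Gm23262, has 168 bases and the longest, Scarna2, has 414. None of the 2659 annotated small RNA genes under 150 bases had any count in any library, and neither did any of the 5940 genes of any type under that length. Of the 113 small RNA genes of 168 bases or more, 75 did not become members, and 70 of those were at 0. The members just inside the rule were the 216-base Rnu3b entries, and the gene just outside was Gm22513 (164 bases), with counts of at least 10 in 2 libraries. Most snoRNAs are shorter than these lengths, so the levels below describe the long members of each class; what sets the limit was not tested.

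**Figure D1:**
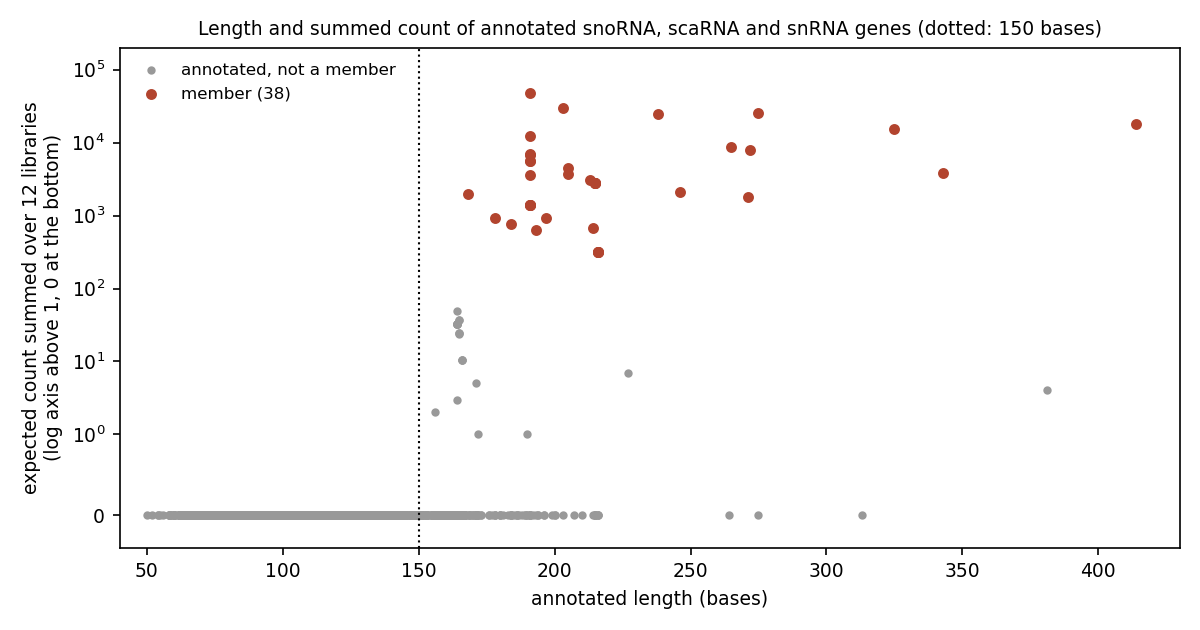
Each point is 1 annotated snoRNA, scaRNA or snRNA gene, with its annotated length in bases on the x axis and its expected count summed over 12 libraries on the y axis, which is logarithmic above 1. All 38 members (red) are 168 bases or longer, and no gene under 150 bases (left of the dotted line) has a count above 0.

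The members took a small share of the counts and a much larger share of TPM. In shDis3 replicates 1 to 4 they held 0.0544%, 0.112%, 0.0278% and 0.0628% of all expected counts, in shExosc10 0.0576%, 0.103%, 0.0659% and 0.114%, and in shLuc 0.244%, 0.0523%, 0.193% and 0.0245%. The same RNAs held 2.08% to 6.28% of TPM in shDis3, 3.31% to 7.6% in shExosc10 and 1.6% to 10.4% in shLuc. TPM divides a count by an effective length, the mean number of start positions that the library's fragment sizes leave in the transcript. For a 191-base U2 gene the deposited effective length was 6.52 to 8.13 bases, and for the 168-base Gm23262 it was 1.3 to 1.66 bases. A value of 1 CPM in Gm23262 was therefore worth 369 to 735 TPM, against 3.15 to 6.08 TPM in the 414-base Scarna2. By mean TPM Gm23262 had rank 3 of 20 RNAs, and by mean normalised CPM, which is the count scaled by TMM library size, it had rank 15. Scarna2 had rank 5 by CPM and rank 15 by TPM. Levels below are in normalised CPM, and are compared between libraries, not between genes, since they are not per length.

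Several libraries stood apart. shLuc replicate 4 and shDis3 replicate 3 had the highest correlation of log expression across genes of all pairs (0.986), and shDis3 replicate 4 and shExosc10 replicate 1 the next (0.981), against 0.91 to 0.973 for the other pairs; genes are not independent replicates. Total counts were 14936200 to 32397204, with the lowest in shDis3 replicate 2. Olfactory receptor genes summed to 32.1, 593, 6.85 and 16.7 CPM in shDis3 replicates 1 to 4. They summed to 12.7, 220, 163 and 263 CPM in shExosc10 and 45.5, 343, 163 and 8.31 CPM in shLuc. The part of these library differences in the results was not tested. Dis3 measured 38.3 ± 12.1 CPM in shDis3, 143 ± 35.9 in shExosc10 and 131 ± 20.3 in shLuc (SD, n = 4), and Exosc10 measured 114 ± 25.2, 26.4 ± 5.5 and 98.2 ± 12 CPM in the same order. Against shLuc, edgeR gave Dis3 a log2 fold change of -1.78 in shDis3 (SE 0.24, adjusted p = 0.0581) and Exosc10 one of -1.89 in shExosc10 (SE 0.21, adjusted p = 0.00502). Summed erythroid markers (9 genes) ranged from 1033 to 1449 CPM in shDis3, 1232 to 2249 in shExosc10 and 1041 to 2385 in shLuc. Granulocyte markers (7 genes) ranged from 2112 to 4822, 1316 to 2096 and 1049 to 4249 CPM in the same order, megakaryocyte markers (8 genes) from 292 to 354, 125 to 302 and 73.9 to 396.5 CPM, macrophage markers (8 genes) from 87.5 to 123, 55.8 to 112 and 73.4 to 104 CPM, and hepatocyte markers (7 genes) from 10.4 to 25.7, 13.5 to 22.6 and 12 to 30.8 CPM. No marker was at 0 in all libraries. The part of these cells in the results was not tested, and in bulk RNA fewer cells of a type and less RNA per cell cannot be told apart.

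The 20 RNAs followed nearly the same order of libraries, and their spread was widest within shLuc. Summed over all members, the level was 526, 996, 260.5 and 714 CPM in shDis3 replicates 1 to 4, 636, 1039, 659 and 1080 CPM in shExosc10 and 2855, 497, 1957 and 231.5 CPM in shLuc. shLuc replicates 1 and 3 were far above every knockdown library, and shLuc replicate 4 was below them all. The groups overlapped. The highest library was 3.82 times the lowest in shDis3, 1.70 times in shExosc10 and 12.3 times in shLuc. shLuc replicates 1 and 3 were the highest pair for 19 of 20 RNAs, and all 8 knockdown libraries lay below both for those 19. shDis3 replicate 3 was among the lowest pair for 20 RNAs and shLuc replicate 4 for 18. The range over 12 libraries had a median of 13.6-fold, from 3.82-fold for Scarna2 to 25.3-fold for Gm23946. In 11 of 20 RNAs all 8 knockdown libraries lay inside the shLuc range.

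**Figure D2:**
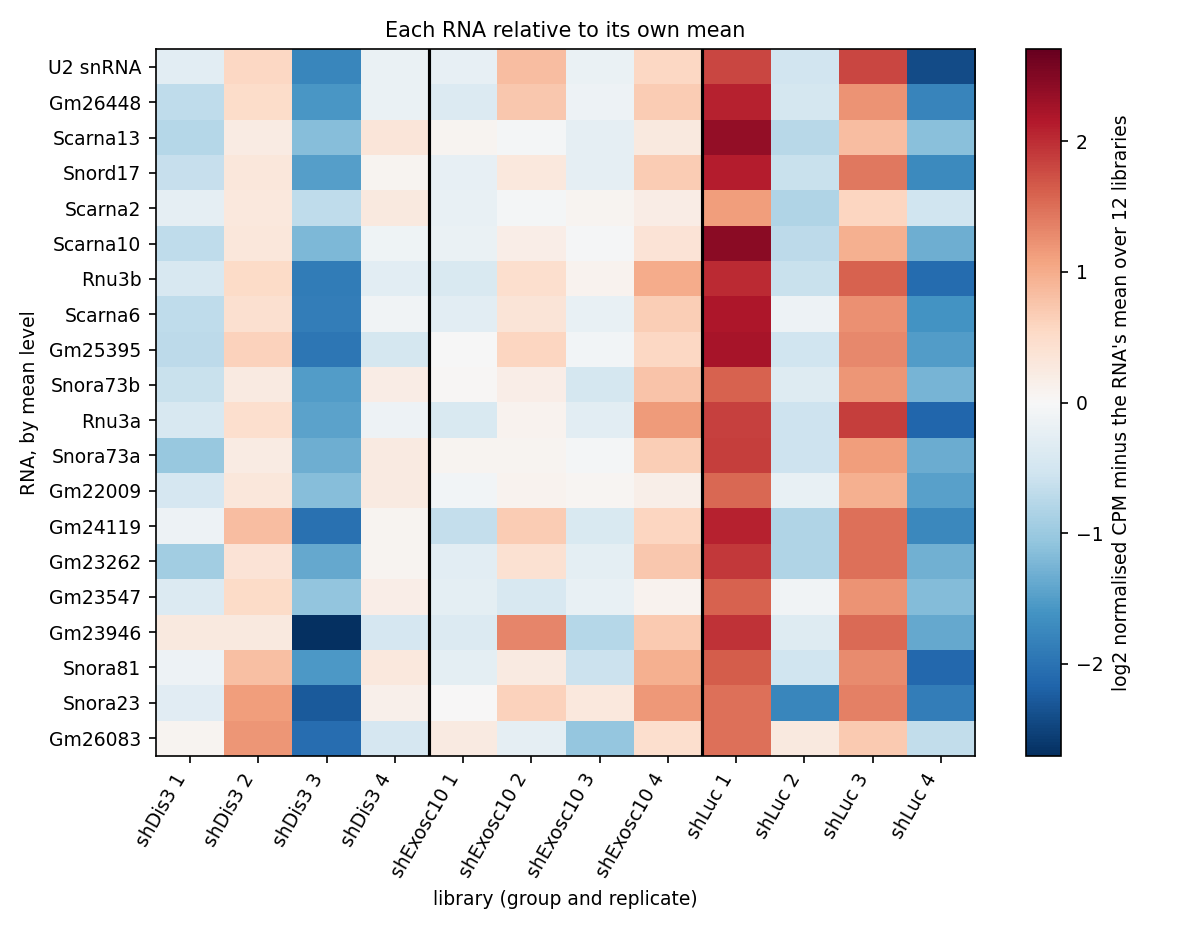
Each cell is the log2 normalised CPM of 1 RNA (rows, ordered by mean level, copies summed) in 1 library (columns, with lines between groups), minus that RNA's mean over 12 libraries. shLuc replicates 1 and 3 are red in all 20 rows, and shDis3 replicate 3 and shLuc replicate 4 are blue in all 20 rows.

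Other structured RNAs that are not members had the same libraries at both ends. The sum of 7SK, the RNA components of RNase P and RNase MRP, signal recognition particle RNA and Terc was 12490 to 31730 CPM in shDis3, 21630 to 27390 CPM in shExosc10 and 12540 to 70230 CPM in shLuc. shLuc replicates 1 and 3 were again the highest (70230 and 44840 CPM), and shDis3 replicate 3 and shLuc replicate 4 the lowest (12490 and 12540 CPM). Mitochondrially encoded genes took 10.3% to 20.9% of counts in shDis3, 16.2% to 20.8% in shExosc10 and 9.79% to 20.9% in shLuc, with 20.9% and 12.1% in shLuc replicates 1 and 3. The lowest shares were 9.79% in shLuc replicate 4 and 10.3% in shDis3 replicate 3, the same libraries that were lowest for the structured RNAs. The part of what these RNAs share with the members in the results was not tested.

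Box C/D RNAs. Snord17, in an intron of Snx5 and in human a guide for ribosomal RNA methylation, measured 44.2, 84, 24.3 and 71.7 CPM in shDis3, 59, 82.9, 58.1 and 109 CPM in shExosc10 and 299, 45.4, 185 and 20.8 CPM in shLuc. The shLuc values span both knockdown groups. Rnu3b, the sum of 8 U3 entries, measured 24.7, 47.6, 8.91 and 27.1 CPM in shDis3, 24.9, 45.6, 35.4 and 66.2 CPM in shExosc10 and 134.7, 21.9, 99.5 and 7.78 CPM in shLuc. Rnu3a, the other U3 gene, measured 7.44, 13.9, 3.7 and 9.25 CPM in shDis3, 7.58, 10.8, 8.34 and 22.6 CPM in shExosc10 and 36.3, 6.85, 37 and 2.28 CPM in shLuc. U3 acts in the first cleavages of the ribosomal RNA precursor, and both U3 genes, like Snord17, were highest in shLuc replicates 1 and 3 and lowest in shLuc replicate 4.

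The split between U3 entries was uneven. The 214-base Rnu3a entry held 129, 0, 0 and 93.1 expected counts in shDis3, 0, 0, 26.9 and 249 in shExosc10 and 60.1, 0, 89.9 and 30.5 in shLuc, while the 213-base entry at the same start held 68.5, 233, 128 and 157 in shDis3, 200, 267, 223 and 212 in shExosc10 and 628, 201, 720 and 37.5 in shLuc. The 4 Rnu3b entries of 216 bases had the same counts as each other, as had the 4 of 215 bases. Each 215-base entry measured 6.17, 11.9, 2.23 and 5.81 CPM in shDis3, 5.87, 11.4, 8.07 and 13.9 CPM in shExosc10 and 28.2, 5.21, 20.8 and 1.94 CPM in shLuc. Each 216-base entry measured 0, 0, 0 and 0.962 CPM in shDis3, 0.341, 0, 0.767 and 2.64 CPM in shExosc10 and 5.49, 0.273, 4.06 and 0 CPM in shLuc. The entries at a locus are 1 base apart, so their reads cannot be kept apart either.

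Box H/ACA RNAs. Gm26448, in an intron of Rpsa and close to Snora73a in sequence, measured 52, 118.5, 28.1 and 74 CPM in shDis3, 65.2, 138, 75.7 and 135 CPM in shExosc10 and 354, 60.2, 195 and 24.3 CPM in shLuc. Snora73b and Snora73a share 96.6% of their bases and lie in introns of Rcc1, on its strand. On the same strand Snora73b lies in an intron of Snhg3, and Snora73a overlaps an exon of it. Reads of Snhg3 may therefore be shared with Snora73a. Snora73b and Snora73a measured 8.72, 15.7, 4.66 and 15.3 CPM and 5.38, 12.9, 4.42 and 13 CPM in shDis3. In shExosc10 Snora73b measured 13.5, 15.1, 9.54 and 22.6 CPM, and in shLuc 40.3, 10.5, 30.3 and 5.53 CPM. Snora73a measured 11.6, 11.5, 10.6 and 17.4 CPM in shExosc10 and 40, 7.5, 24.1 and 4.32 CPM in shLuc. The U17 family acts in ribosomal RNA processing. Snora81, which has an annotated copy with 98.9% identity and overlaps an exon of Eif4a2, measured 0.896 to 4.66 CPM in shDis3, 1.77 to 5.14 CPM in shExosc10 and 0.603 to 8.24 CPM in shLuc. Snora23, in an intron of Ipo7, measured 1.69, 4.6, 0.434 and 2.3 CPM in shDis3, 2.12, 3.24, 2.54 and 4.75 CPM in shExosc10 and 5.91, 0.613, 5.38 and 0.57 CPM in shLuc. In each of these 5 RNAs the shLuc values held the highest library.

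scaRNAs. Scarna13, in an intron of Snhg10 and in human an H/ACA guide for snRNA pseudouridylation, measured 41.9, 83.8, 32.2 and 90.5 CPM in shDis3, 75.1, 68.9, 61 and 86.4 CPM in shExosc10 and 372.5, 43, 128 and 32.7 CPM in shLuc. shLuc replicate 1 was far above all other libraries. Scarna2, which lies outside other genes and in human guides methylation of U2, had the smallest range, with 48.8, 70, 35.8 and 69.4 CPM in shDis3, 50.6, 56.2, 61 and 66.2 CPM in shExosc10 and 127, 33.1, 86.3 and 39.7 CPM in shLuc. Scarna10, which overlaps an exon of Ncapd2 and carries both kinds of box in human, measured 26.6, 52.3, 18.4 and 39.2 CPM in shDis3, 37.6, 48.1, 41.7 and 55 CPM in shExosc10 and 230, 26, 83.3 and 17 CPM in shLuc. Scarna6, in an intron of Atg16l1, measured 15, 32.7, 6.56 and 22.7 CPM in shDis3, 19.9, 30.8, 21.1 and 38.5 CPM in shExosc10 and 110, 22, 56.7 and 7.84 CPM in shLuc. Gm25395, in another intron of Atg16l1 (61.4% identity to Scarna6), measured 5.67 to 33.6 CPM in shDis3, 20.8 to 32.9 CPM in shExosc10 and 7.74 to 103 CPM in shLuc. Gm22009, in an intron of Kpna4, measured 5.21 to 14.3 CPM, 11.1 to 13 CPM and 4.19 to 34 CPM in the same order. Gm26083, which overlaps an exon of Snhg20, measured 2.03, 4.36, 0.463 and 1.41 CPM in shDis3, 2.27, 1.62, 0.934 and 2.64 CPM in shExosc10 and 5.39, 2.32, 3.15 and 1.21 CPM in shLuc, and was the 1 RNA with a knockdown library, shDis3 replicate 2, above shLuc replicate 3.

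**Figure D3:**
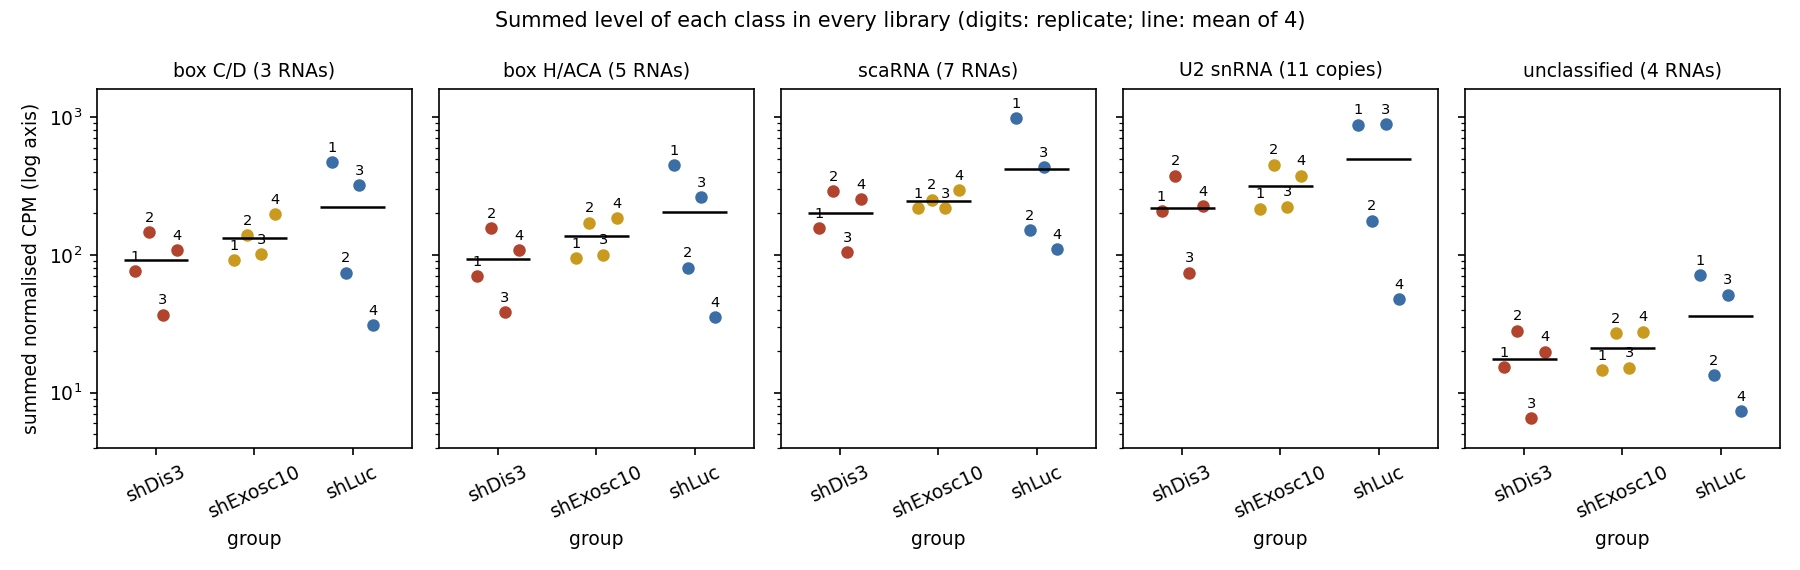
Each panel gives 1 class, with the summed normalised CPM of its RNAs on a logarithmic y axis and the groups shDis3, shExosc10 and shLuc from left to right; each point is 1 library with its replicate number, and lines are means of 4. The shLuc points span more than the other groups in every panel, with replicates 1 and 3 above every shDis3 and shExosc10 library and replicate 4 the lowest of shLuc.

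U2 snRNA. The 11 U2 genes held 36.1% of the members' counts. Their sum was 208, 375, 74.3 and 225.5 CPM in shDis3, 217, 451, 223 and 375 CPM in shExosc10 and 883, 178, 889 and 47.6 CPM in shLuc. Both the highest and the lowest library were shLuc libraries, 18.7-fold apart. Gm23971, whose sequence is identical to that of Rnu2-10, Gm23849 and Gm24950, held 41.6% to 56.4% of the U2 count in shDis3, 52.5% to 55.1% in shExosc10 and 14.2% to 52.2% in shLuc. Rnu2-10, with the same bases, held 0.00191% to 4.63% in shDis3, 0.00665% to 1.78% in shExosc10 and 0.518% to 14.2% in shLuc. These genes are identical in GENCODE 21, yet their deposited counts differed by up to 9097 in a library, and whether the sequences used for the deposited counts differed from GENCODE 21 could not be settled. The U2 genes are therefore compared as a sum. In CPM, Gm23971 measured 105, 211.5, 30.9 and 122 in shDis3, 120, 245, 117 and 205 in shExosc10 and 461, 74, 431 and 6.74 in shLuc. Rnu2-10 measured 4.36, 0, 3.44 and 0.074 CPM in shDis3, 0.189, 8.05, 0.0334 and 0.0489 CPM in shExosc10 and 4.59, 10.1, 16.1 and 6.74 CPM in shLuc. Both genes had the same value in shLuc replicate 4, and Gm23971 was far above Rnu2-10 in all other libraries. Gm25360 measured 25, 48, 9.48 and 31.2 CPM in shDis3, 31.3, 63.6, 30.5 and 38.8 CPM in shExosc10 and 116, 23.8, 115 and 6.34 CPM in shLuc. Gm25939 measured 16.7, 24.9, 5.55 and 18.5 CPM in shDis3, 15.1, 29.9, 15.5 and 36 CPM in shExosc10 and 69.2, 12.5, 63.3 and 2.92 CPM in shLuc. These 2 diverged copies kept a narrower share of the U2 count, 10.35% to 14.4% for Gm25360 and 6.13% to 9.6% for Gm25939 over all 12 libraries. Not all diverged copies did. The share ran from 0% to 10.2% for Gm24497 and from 3.84% to 10.1% for each of Gm23444 and Gm23472. It ran from 2.44% to 5.35% for Gm22973 and from 0.926% to 1.76% for Gm26316. Gm24497 measured 19.9, 18.3, 3.85 and 7.81 CPM in shDis3, 12.5, 25.9, 2.2 and 30.6 CPM in shExosc10 and 79.4, 14.51, 90.4 and 0 CPM in shLuc.

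**Figure D4:**
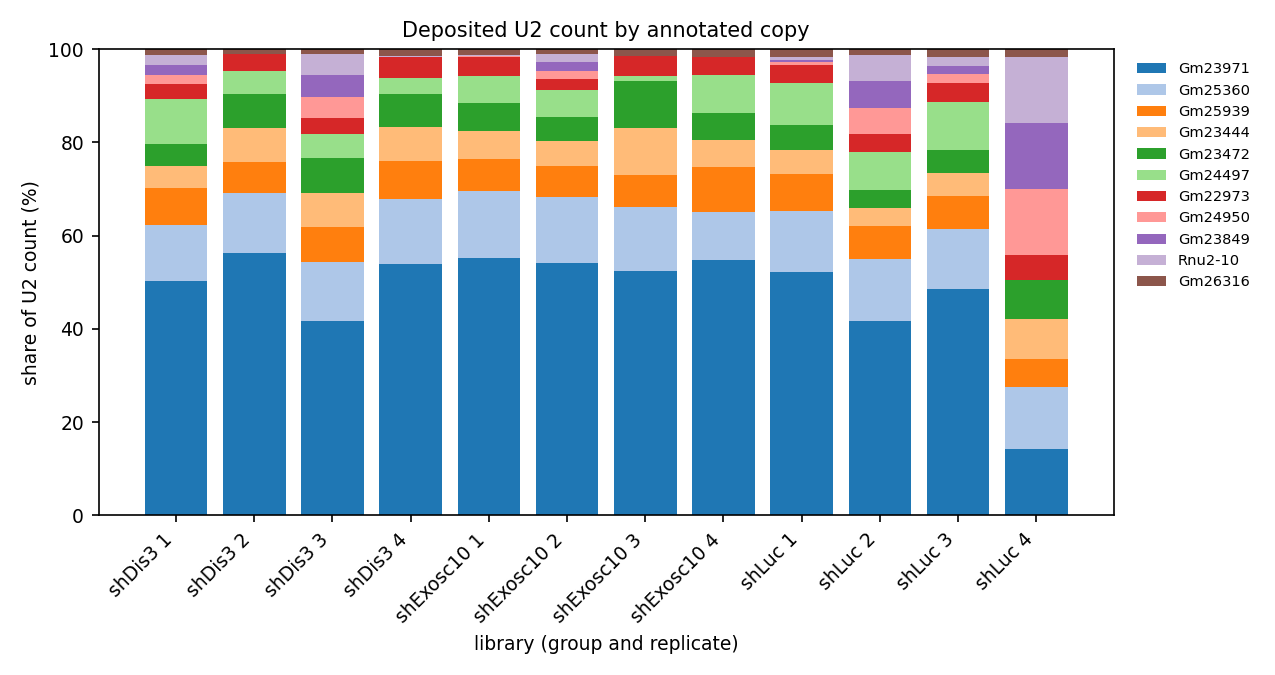
Each bar is 1 library, in the order shDis3, shExosc10 and shLuc, and shows the share of its summed U2 expected count (y axis, percent) that was given to each of the 11 annotated U2 genes. Gm23971 holds 41.6% or more in every library except shLuc replicate 4, where it and 3 identical copies hold 14.2% each.

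The unclassified RNAs. Gm24119, in an intron of Slc25a3, measured 5.23, 10.2, 1.42 and 6.03 CPM in shDis3, 3.64, 9.23, 4.27 and 8.56 CPM in shExosc10 and 24.3, 3.27, 16.1 and 1.71 CPM in shLuc. Gm23262 overlaps an exon of Eif4g2, Gm23547 an exon of Phb2 and Gm23946 an exon of Timm23, so reads of these host transcripts may be shared with them. Gm23262 measured 2.93, 7.29, 2.14 and 5.92 CPM in shDis3, 4.59, 7.53, 4.7 and 9.3 CPM in shExosc10 and 21, 3.2, 15.8 and 2.28 CPM in shLuc. Gm23547 measured 4.21, 7.77, 2.6 and 6.14 CPM in shDis3, 4.51, 4.05, 4.74 and 5.77 CPM in shExosc10 and 16.5, 5.08, 12.6 and 2.41 CPM in shLuc. Gm23946 measured 2.93, 2.93, 0.376 and 1.78 CPM in shDis3, 1.89, 6.11, 1.43 and 4.01 CPM in shExosc10 and 9.5, 1.91, 7.07 and 0.939 CPM in shLuc. In all 4 the highest library was shLuc replicate 1.

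shDis3 against shLuc. None of the 38 members passed the threshold of an adjusted p of 0.05 in edgeR, and 0.0% of the 17650 genes tested did. DESeq2 and limma on log2(TPM + 1) called 0 members too. Without the filter on low counts, 15 members were called, beside 0.297% of the 41382 genes then tested. Without shDis3 replicate 4, shExosc10 replicate 1 and shLuc replicate 4, the 4 called were the 216-base Rnu3b entries, beside 4.04% of genes; the shDis3 libraries then left are all at 0 for them. At an unadjusted p of 0.05, 4 members (Gm25395, Scarna6, Scarna10 and Gm26316, a U2 copy) lay below it, as did 4.07% of all genes tested. The median log2 fold change of the 38 members was -1.21, against 0.02 over all genes tested, and 37 of 38 were below 0, against 47.4% of all genes, with 1 above 0, against 52.6%. A log2 fold change of -1 or less was found in 27 members, against 3.01% of all genes; copies share reads, so these are not 38 independent values. With copies summed, all 20 RNAs were below 0, with a median of -1.19. Log2 fold changes were -1.17 for U2 (SE 0.69, adjusted p = 1.0), -1.26 for Rnu3a (SE 0.68), -1.28 for Rnu3b (SE 0.68), -1.29 for Snord17 (SE 0.62), -1.21 for Gm26448 (SE 0.63), -1.21 for Scarna13 (SE 0.59) and -0.35 for Scarna2 (SE 0.36). Box C/D members had a median of -1.30, H/ACA members -0.97, scaRNAs -1.21, U2 copies -1.32 and the unclassified RNAs -1.11. The lowest single entry was the 216-base Rnu3b (-3.30, SE 1.77), and the highest the 214-base Rnu3a (0.02, SE 1.69). The groups did not overlap for 3 members (1.7% of all genes), the identical U2 copies Rnu2-10, Gm23849 and Gm24950, which share 1 divided count; no RNA with copies summed had groups that did not overlap. Without shLuc replicates 1 and 3, an alternative chosen after the data were seen, the median of the 38 members was 0.80. Without shLuc replicate 1 alone it was -0.56, and in limma on TPM it was -0.51.

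shExosc10 against shLuc. None of the 38 members passed the threshold in edgeR, DESeq2 or limma, and 0.00567% of the genes tested did, which was 1 gene, Exosc10 itself. No member had an unadjusted p under 0.05, against 2.1% of all genes. The median of the members was -0.69, against 0.02 over all genes, and 36 of 38 were below 0, against 47.8% of all genes, with 2 above 0, against 52.2%. A log2 fold change of -1 or less was found in 9 members, against 1.72% of all genes, and the groups did not overlap in 0 members, against 2.48%. With copies summed, 19 of 20 RNAs were below 0. Log2 fold changes were -0.65 for U2 (SE 0.68, adjusted p = 1.0), -0.73 for Rnu3a (SE 0.67), -0.60 for Rnu3b (SE 0.67), -0.82 for Snord17 (SE 0.62), -0.60 for Gm26448 (SE 0.62) and -0.97 for Scarna13 (SE 0.59). Snora23 was at 0.04 (SE 0.75), the highest of the 20. This comparison shares the shLuc libraries with the one before. Without shLuc replicates 1 and 3, again an alternative chosen after the data were seen, the median of the members was 1.32. Without shLuc replicate 1 alone it was -0.04, without shLuc replicate 3 alone -0.44, and without shLuc replicate 4 alone -1.06. In limma on TPM it was -0.07.

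shDis3 against shExosc10. None of the 38 members passed the threshold in edgeR, DESeq2 or limma, and 0.0113% of all genes tested did. No member had an unadjusted p under 0.05, against 5.98% of all genes. The median of the members was -0.52, against 0.01 over all genes, and 36 of 38 were below 0, against 48.8% of all genes, with 2 above 0, against 51.2%. A log2 fold change of -1 or less was found in 4 members, against 4.5% of all genes, and the groups did not overlap in 0 members, against 3.71%. Log2 fold changes were -0.53 for U2 (SE 0.68, adjusted p = 1.0), -0.53 for Rnu3a (SE 0.68), -0.68 for Rnu3b (SE 0.68) and -0.61 for Gm26448 (SE 0.63). Gm26083 (0.13, SE 0.61) and Gm23547 (0.11, SE 0.48) were above 0. With libraries fitted in 3 clusters, shLuc 4 with shDis3 3, shDis3 4 with shExosc10 1, and the rest, the median of the members was -0.08. The paired libraries are those with the highest correlations given above. That fit gave medians of -0.87 in shDis3 against shLuc and -0.86 in shExosc10 against shLuc. In shDis3 against shExosc10 the median was -0.25 without shDis3 replicate 3 and -0.87 without shDis3 replicate 2.

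**Figure D5:**
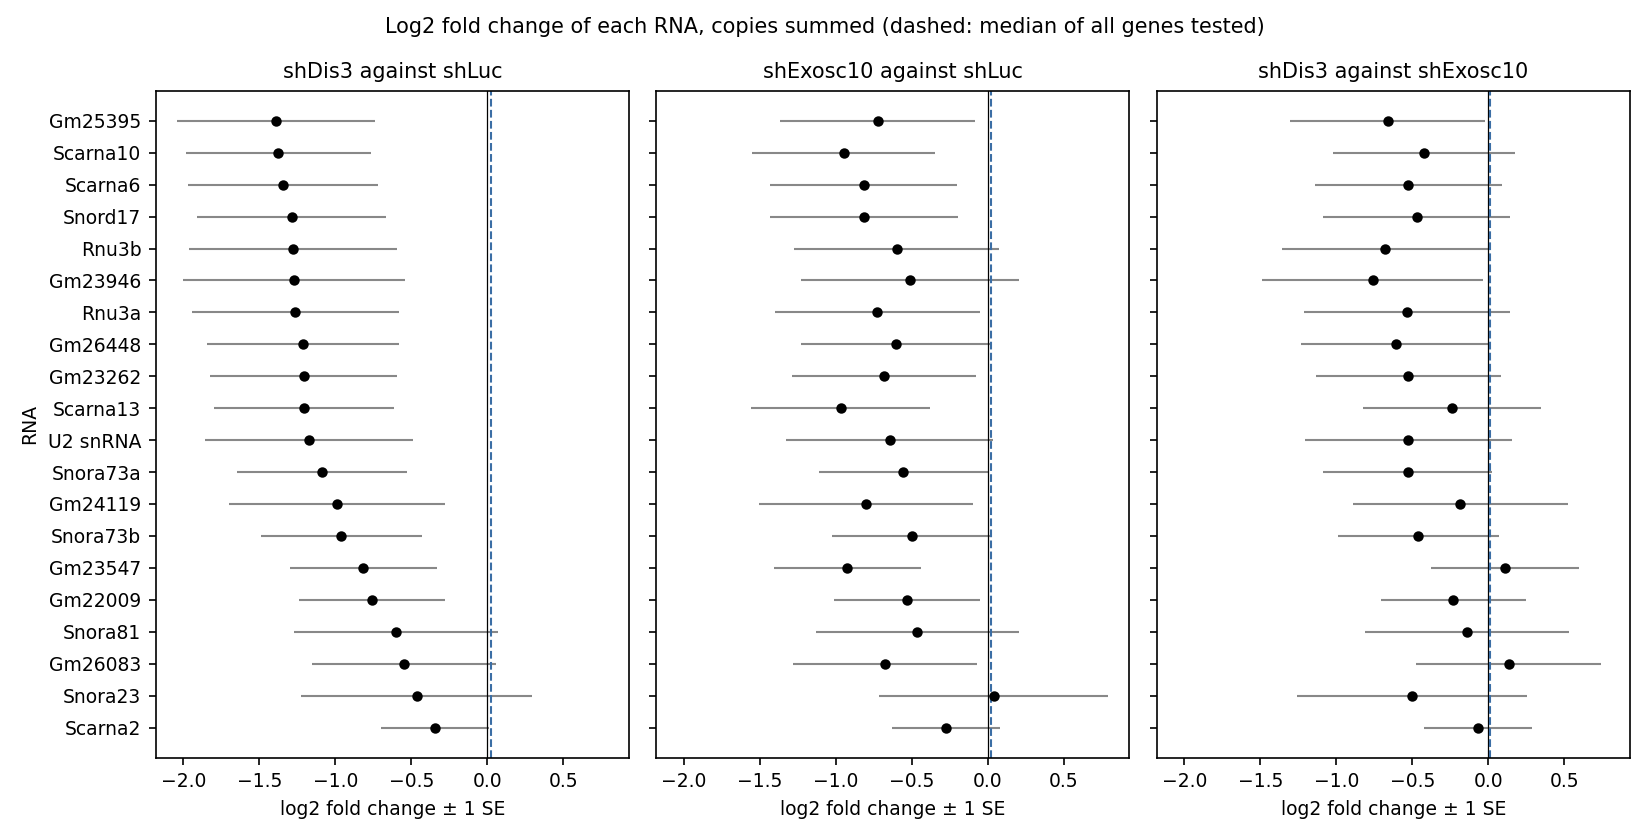
Points are log2 fold changes of the 20 RNAs (rows, copies summed) with bars of 1 SE, in shDis3 against shLuc, shExosc10 against shLuc and shDis3 against shExosc10; the dashed line is the median of all genes tested. Most points are below 0 in all panels, and none passed the adjusted threshold.

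Other genes of similar length gave a comparison that shares the length but not the class. The 164 other tested genes of 168 to 414 bases had median log2 fold changes of -0.24 with shDis3 set against shLuc, 0.02 in shExosc10 against shLuc and -0.21 in shDis3 against shExosc10. In the same order 118, 78 and 124 of the 164 were below 0. Their summed level, which includes structured RNAs such as 7SK, was 18110 to 43310 CPM in shDis3, 31500 to 38050 CPM in shExosc10 and 17920 to 83460 CPM in shLuc. As for the members, shLuc replicates 1 and 3 were the highest (83460 and 58120 CPM), and shDis3 replicate 3 and shLuc replicate 4 the lowest (18110 and 17920 CPM). Most of this sum came from the structured RNAs given above, all but Terc. With Terc those were at 70230 and 44840 CPM in shLuc replicates 1 and 3. They were at 12490 and 12540 CPM in shDis3 replicate 3 and shLuc replicate 4. The order of libraries here is therefore not a separate observation. The host genes had narrower ranges than most members. Of the host genes on the same strand, 16 were tested, and over 12 libraries the highest was a median of 1.98 times the lowest, from 1.42 to 8.39. The 8.39 was for Snhg10, which lay at only 0.202 to 1.7 CPM. Tex14, host of the Rnu3b entries, was not tested, and D230017M19Rik, host of the U2 copies Gm23472, Gm24497 and Gm25939, was not matched. shLuc replicates 1 and 3 were the highest pair for 1 host, and shDis3 replicate 3 and shLuc replicate 4 the lowest pair for 5. The 1 host was Snhg20, an exon of which overlaps the member Gm26083, so reads may be shared. Over the hosts, the median log2 fold change was -0.08 with shDis3 set against shLuc, -0.09 in shExosc10 against shLuc and 0.05 in shDis3 against shExosc10, and 0 were called. Snx5, host of Snord17, had -0.18 in shDis3 against shLuc (SE 0.27) and -0.55 in shExosc10 against shLuc (SE 0.27), and Rpsa, host of Gm26448, had 0.10 (SE 0.22) and 0.06 (SE 0.22).

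The proteins that make, carry and use these RNAs were read from 9 gene lists with 120 genes, of which 117 were tested. None was called in any comparison by edgeR. In shDis3 against shLuc 60 were below 0 and 57 above, with 2 at an unadjusted p under 0.05; in shExosc10 against shLuc 59 and 58, with 4; in shDis3 against shExosc10 55 and 62, with 4. Medians in shDis3 against shLuc and shExosc10 against shLuc were 0.01 and -0.02 for the 4 C/D snoRNP core proteins, among them Nop56 (-0.01, SE 0.19, and 0.12, SE 0.19) and Nop58 (0.03, SE 0.23, and 0.37, SE 0.23). They were 0.01 and 0.09 for the 4 H/ACA core proteins, among them Nhp2 (0.04, SE 0.23, and 0.14, SE 0.23) and Dkc1, the pseudouridine synthase (-0.01, SE 0.22, and 0.05, SE 0.22). For 10 snoRNP assembly factors they were 0.15 and 0.15, with Ruvbl1 at 0.24 (SE 0.28) and 0.16 (SE 0.28) and Ruvbl2 at 0.16 (SE 0.20) and -0.08 (SE 0.20). For 6 Cajal body and nucleolar carriers they were 0.06 and -0.15, with Nolc1 at 0.01 (SE 0.24) and -0.19 (SE 0.24) and Tcof1 at -0.24 (SE 0.36) and -0.59 (SE 0.37). For 25 genes of snRNA transcription, cleavage, capping and export they were 0.05 and 0.02, with Xpo1 at -0.21 (SE 0.17) and -0.05 (SE 0.17) and Ncbp1 at 0.12 (SE 0.23) and -0.04 (SE 0.23). For 12 SMN complex genes they were 0.07 and -0.01, with Strap at -0.02 (SE 0.17) and 0.12 (SE 0.17) and Gemin5 at 0.15 (SE 0.26) and -0.14 (SE 0.26). For 16 Sm and LSm ring proteins they were -0.09 and -0.01, with Snrpf at -0.17 (SE 0.21) and 0.01 (SE 0.21) and Snrpb at 0.06 (SE 0.23) and -0.16 (SE 0.23). For 24 snRNP-specific proteins the median was 0.00 in both, with Prpf8 at 0.10 (SE 0.19) and -0.18 (SE 0.19) and Snrnp200 at 0.00 (SE 0.19) and 0.05 (SE 0.19). For 16 tested genes of exosome-linked trimming and tailing they were -0.06 and 0.00, with Ssb at 0.03 (SE 0.24) and 0.46 (SE 0.24) and Mtrex at -0.05 (SE 0.20) and 0.19 (SE 0.20).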

How the data were processed

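Total RNA from sorted cells was sequenced with a stranded total RNA kit, per the labels' protocols. The deposited tables give an RSEM expected count per gene, an estimated count that need not be whole, and TPM, a length-scaled value, with lengths and effective lengths. STAR 2.5.3a, RSEM 1.3.0 and build GRCm38 are named per the submitters' processing notes; which annotation, strand setting or filter was used is not stated. Names, types, positions and sequences came from GENCODE mouse release 21 on GRCm38, which matched 55144 of 55385 identifiers. Whether the counting kept apart the reads of genes that overlap on opposite strands is therefore not known. Strand does not separate reads of genes that overlap on the same strand.

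Rounded expected counts entered edgeR (4.0.16, R 4.3.3) for its quasi-likelihood test (TMM, the default filter by group, all 12 libraries, group as the only term), leaving 17650 genes with a biological coefficient of variation of 60.0%. P-values were adjusted by the Benjamini-Hochberg method across those genes. SE is derived from the F statistic. Levels are TMM-normalised CPM. Alternatives used DESeq2 1.42.0 and limma 3.58.1 on log2(TPM + 1) and log2(TPM + 0.1), other scalings and filters, left-out libraries, and summed copies. The test was checked on simulated data with changes larger than most of the members' estimates, so that check does not cover changes of their size. The members and lists were chosen with earlier results of these data known. Levels are given for all 20 RNAs. Fold changes are named for only some of these RNAs, the extremes, some hosts, and the 2 highest genes of each list. The RNAs with a named fold change differ between comparisons. Same-numbered libraries did not deviate together in all 12 pairs (r -0.47 to 0.77), so numbers were not taken as pairing. The 4 libraries per group limit precision.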

Additional observations from a re-analysis of the deposited data

Results flagged for a closer look

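Among 63 sets of 4 libraries (20 RNAs and their sum in 3 groups), 1 had a library far from the others. Snora73a measured 17.4 CPM in shExosc10 replicate 4, against 11.6, 11.5 and 10.6 CPM in replicates 1 to 3. Chance flags about 1 in 20 such sets.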

How the results depend on the processing

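The count of members called stayed at 0 in all comparisons and alternatives except 2 in shDis3 against shLuc. It was 15 without the filter on low counts, and 4 with 3 libraries left out together (shDis3 replicate 4, shExosc10 replicate 1, shLuc replicate 4). The cause was not tested. The count of members with an unadjusted edgeR p under 0.05 moved more. In shDis3 against shLuc it was 4 with all libraries, 30 without shLuc replicate 4 and 0 without shLuc replicate 1. In shExosc10 against shLuc it was 0, 10 and 0 in the same order, and 21 without shLuc replicates 1 and 3 together. Without the filter on low counts it was 33 in shDis3 against shLuc and 18 in shExosc10 against shLuc. Beside the 4 and 0 with all libraries, the share of all genes tested was 4.07% and 2.1%. No such share was taken for the other settings, and copies share reads, so these counts are not a result about the members. Leaving out 1 library at a time gave 0 called in each comparison, with member medians of -1.57 to -0.56 in shDis3 against shLuc, -1.06 to -0.04 in shExosc10 against shLuc and -0.87 to -0.25 in shDis3 against shExosc10. The replicate block gave medians of -1.08, -0.65 and -0.53 in the same order and no calls. Leaving out shLuc replicates 1 and 3 together was chosen after the data were seen, and they were the highest pair for 19 of 20 RNAs. A rise of the fold changes was thus fixed by that choice, and its values, also those at an unadjusted p above, only describe it. The medians became 0.80 in shDis3 against shLuc and 1.32 in shExosc10 against shLuc, and the named RNAs reversed as follows. In shDis3 against shLuc the values were 0.77 for Snord17, 0.69 for Gm26448, 0.73 for Scarna13, 0.63 for Scarna2, 0.98 for U2, 0.91 for Rnu3a and 0.86 for Rnu3b. In shExosc10 against shLuc they were 1.25 for Snord17, 1.32 for Gm26448, 0.97 for Scarna13, 1.52 for U2, 1.46 for Rnu3a and 1.56 for Rnu3b. Scarna2 in shDis3 against shLuc also reversed with limma, to 0.0455 (TPM + 1) and 0.0458 (TPM + 0.1), and spanned -0.58 to 0.0694 with 1 library left out. In shExosc10 against shLuc, Gm26448 was at 0.0559 with limma on TPM + 1 and 0.0559 on TPM + 0.1, and spanned -0.999 to 0.15 with 1 library left out, and Scarna13 spanned -1.34 to 0.11. In shDis3 against shExosc10 the library clusters gave 0.0621 for U2 and 0.0563 for Rnu3a. Without the filter, Snord17, Gm26448, Scarna13, U2, Rnu3a and Rnu3b passed the threshold in shDis3 against shLuc, with edgeR adjusted p-values of 0.0014 to 0.0193. The 4 libraries per group and their variation limit what size of change can be called.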
